A study of Mus musculus with 48 samples.

Results

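The translation elongation factors and cytoplasmic poly(A)-binding proteins were followed through the cytoplasmic and polysomal RNA of mPDAC cells, a line of pancreatic ductal adenocarcinoma cells from the mouse, with and without N6L, a synthetic antagonist of the nucleolar protein nucleolin. The group comprised 10 genes of 50600 listed, chosen by symbol: Eef1a1, Eef1b2, Eef1d, Eef1g, Eef2, Eef2k, Eif5a, Pabpc1, Pabpc4 and Tpt1. All 10 were found and all 10 passed the filter on low counts, which kept 13889 genes. The non-treated (NT) cultures were numbered 1, 2 and 4 and the cultures treated with 50 µM N6L for 48 h were numbered 1, 2 and 3. Cytoplasmic and polysomal RNA of every culture was sequenced, so that 4 groups of 3 libraries were compared. All groups shared 1 cell line, labelled with an FVB/N x C57BL6 background and an age of 8-week-old, and no genetic change separated them. Emetine, an elongation inhibitor that holds ribosomes on mRNA, was added to every culture before lysis, and polyadenylated RNA was sequenced from all libraries.

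Elongation is the step of protein synthesis in which the ribosome adds amino acids one by one. eEF1A brings each aminoacyl-tRNA to the ribosome with GTP, the eEF1B subunits encoded by Eef1b2, Eef1d and Eef1g recharge eEF1A with GTP, and eEF2 moves the ribosome along the mRNA. The cytoplasmic poly(A)-binding proteins coat the mRNA tail and connect it with the initiation complex at the cap. Many of these mRNAs, like those of ribosomal proteins, are known as 5′ TOP mRNAs: they begin with a C followed by an unbroken run of pyrimidines, and their recruitment to ribosomes depends on mTORC1 signalling and on the binding protein Larp1.

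The first bases of the mRNAs are shown because this start defines the TOP class. GENCODE vM21 transcripts (GRCm38) were searched for a C followed by at least 4 pyrimidines (C or T) at the annotated start, on the transcript strand only. Of the 10 genes, 5 had at least 1 transcript with such a start, beside 36 of 86 ribosomal protein genes (41.9%) and 8.52% of 21764 protein-coding genes. The C and the pyrimidine run are in capitals in the 24 bases given for each of the 5, 5′ to 3′.
Eef1b2 (chr1:63177129-63177152, plus strand): CCTTTTTTTCCCTCagcgctggcc
Eef1d (chr15:75909283-75909306, minus strand): CTCTCCTTTgcagtcctgagctcg
Pabpc1 (chr15:36608950-36608973, minus strand): CCCCTTCTCCCCggcggttagtgc
Pabpc4 (chr4:123262351-123262374, plus strand): CCTTTaactcatcaactctattat
Tpt1 (chr14:75845331-75845354, plus strand): CTTTTCCgcccgctcccccctccc
These starts lay in the first exon of the transcript. The runs held 14 bases in Eef1b2, 12 in Pabpc1, 9 in Eef1d, 7 in Tpt1 and 5 in Pabpc4. For Eef1b2, Pabpc4 and Tpt1 the start belonged to a transcript annotated as subject to nonsense-mediated decay, as processed and as retaining an intron, respectively. The annotated starts of the other 5 genes did not match. Those of Eef1a1 and Eef2, both abundant elongation factors, are given beside them.
Eef1a1 (chr9:78481701-78481724, minus strand): ttcccgagggtgggggagaacggt
Eef2 (chr10:81176631-81176654, plus strand): gttgacgtcagcggtctcttccgc
No match says only that these letters were not at an annotated start, and annotated starts can miss the base at which transcription begins. When the C could lie up to 10 bases further in, the count stayed at 5 of 10, while it rose to 70.9% of ribosomal protein genes and 45.6% of protein-coding genes. The Eef2 bases hold a C with a pyrimidine run (ctcttcc) further in than those 10 bases.

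Both poly(A)-binding protein genes also had an adenine-rich stretch in an annotated 5′ UTR, shown because the Pabpc1 protein is known to bind such a stretch in its own mRNA. In 30-base windows, 536 of 20056 genes with an annotated 5′ UTR of that length (2.67%) held at least 20 adenines. The adenines are in capitals.
Pabpc1 (chr15:36608840-36608869, minus strand): gAAAAAAcccAAAAAAAAtttAcAAAAAAA
Pabpc4 (chr4:123282891-123282920, plus strand): tAAAAAAAAAAAAAAgAAAAgAAAAgAAgA
The window held 22 adenines in Pabpc1, beginning at base 105 of a 5′ UTR of 467 bases, and 25 adenines in Pabpc4, beginning at base 67 of the 790-base 5′ UTR of 1 annotated isoform. The other 8 genes had at most 14 adenines in their richest window.

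The libraries held 19519911 to 44972333 counts, and the 10 genes took 1.82 to 2.47% of them. The deposited counts are relative within a library, so fewer cells and less RNA per cell cannot be told apart, and a change shared by all mRNAs does not show. Of 8 ductal epithelial markers, 7 were above 1 CPM (counts per 1000000 counts of a library) in every group and their summed level was 7110 to 9870 CPM. The summed level of 4 leukocyte markers was at most 2.45 CPM, that of 3 endothelial markers at most 1.13 CPM and that of 4 fibroblast markers at most 0.891 CPM. Of the 3 acinar markers, Cpa1 and Ptf1a had no count in any library. The third, Cela1, was above 1 CPM in every group, and the summed acinar level was 29.8 to 76 CPM. The nuclear transcripts Malat1 and Neat1 together reached 71.6 to 130 CPM in NT cytoplasm and 212 to 249 CPM in N6L cytoplasm, and 42.9 to 65.3 CPM in NT polysomes and 70.5 to 155 CPM in N6L polysomes, while transcripts of the mitochondrial genome took 0.454 to 0.966% of counts in NT cytoplasm and 0.121 to 0.242% in N6L cytoplasm. The part of both in the changes described here was not tested. Annotated copies with at least 90% identity to a gene of the group held from 0.0351% of the counts of Eef2 to 1.07% of those of Tpt1, the latter mainly the pseudogene Tpt1-ps3 (0.975%). How reads from such copies were counted, and whether strand was used for overlapping genes, is not given in the sources used here.

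**Figure D1:**
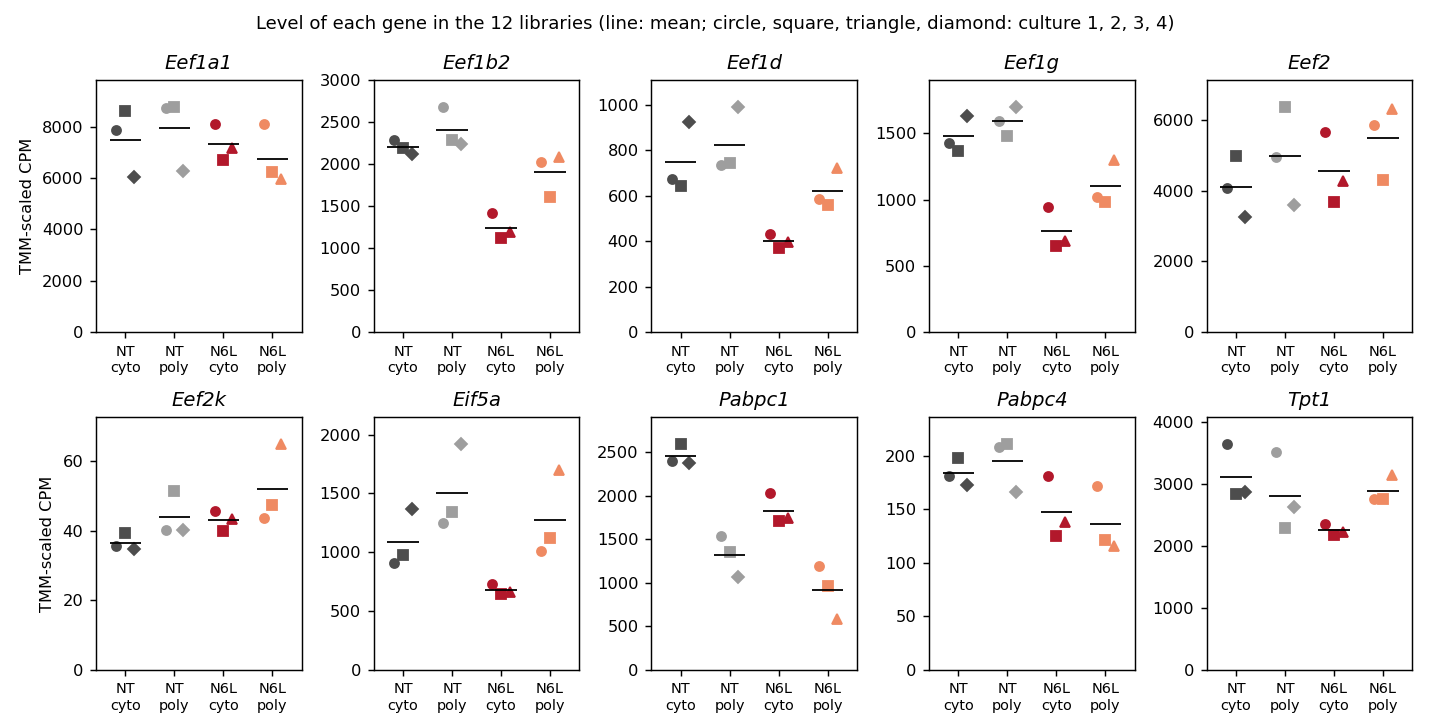
Level of each of the 10 genes in the 12 libraries, in CPM scaled by TMM (vertical axes, linear and starting at 0, a different range for each gene), for NT and N6L cytoplasm (cyto) and polysomes (poly). Symbols give the culture and lines the mean of 3 cultures. For Eef1b2, Eef1d, Eef1g and Eif5a every N6L cytoplasmic library lies below every NT cytoplasmic library, and for Pabpc1 every polysomal library lies below both cytoplasmic groups.

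Levels were compared between genes as CPM per kilobase of the longest annotated coding transcript. In NT cytoplasm Eef1a1 was highest at 4180 ± 737 CPM per kilobase (SD, n = 3), followed by Tpt1 at 2660 ± 392. Eef2 at 1330 ± 280 and Eef1b2 at 1130 ± 44.1 came next, and their libraries overlapped. Pabpc1 at 871 ± 42.7, Eef1g at 792 ± 71.7 and Eif5a at 755 ± 175 followed and overlapped with one another. Eef1d at 263 ± 54.4, Pabpc4 at 59.2 ± 4.08 and the kinase Eef2k at 5.56 ± 0.349 lay apart from each other and from the genes above them. The order depends on the length used: with the shortest annotated coding transcript of Eef1b2 (681 instead of 1939 bases) its level would be 3230 CPM per kilobase. The levels of Pabpc1, Eef1d and Eef2k would likewise be 4140, 2140 and 75.4, while those of Eef1g and Eef2 would not change. In N6L cytoplasm the 3 highest genes were again Eef1a1 (4080 ± 398), Tpt1 (1920 ± 75.1) and Eef2 (1470 ± 330), now without overlap between Eef2 and the next gene, Pabpc1 (648 ± 62.8). In NT polysomes Pabpc1 took the seventh place at 467 ± 83.1, below Eef1g at 853 ± 59.6 without overlap. In N6L polysomes Pabpc1 was at 323 ± 110 and overlapped with Eef1d at 219 ± 31.1.

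N6L was compared with NT in the cytoplasm to ask how the amount of each mRNA changed. Of the 10 mRNAs, 4 fell and 0 rose (edgeR quasi-likelihood test, Benjamini-Hochberg adjusted p under 0.05 over all genes), namely the 3 eEF1B subunit mRNAs Eef1b2, Eef1d and Eef1g, and Eif5a. Among all genes 13.8% were lower and 14.5% higher by this test. The median log2 fold change of the 10 genes was -0.45, with an SD of 0.11 over N6L cultures, against 0.04 for all genes tested. The mRNAs of eEF1A and eEF2 did not pass the test.

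Eef1b2 encodes the nucleotide exchange subunit eEF1B alpha. Its cytoplasmic level was 2290, 2190 and 2120 CPM in NT cultures 1, 2 and 4 and 1420, 1120 and 1190 CPM in N6L cultures 1, 2 and 3. Every N6L value lay below every NT value, a 1.77-fold lower level by the fit (log2 fold change -0.82, 95% interval -1.14 to -0.50, adjusted p = 0.0027 by edgeR).

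Eef1d encodes the second exchange subunit, eEF1B delta. It was at 675, 645 and 926 CPM in the NT cultures and at 431, 370 and 397 CPM in the N6L cultures, 1.87-fold lower (log2 fold change -0.91, 95% interval -1.29 to -0.52, adjusted p = 0.00407 by edgeR). The groups did not overlap, and NT culture 4 stood above the other two.

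Eef1g encodes eEF1B gamma, the structural subunit that anchors the complex. Its level was 1430, 1370 and 1630 CPM in the NT cultures and 947, 654 and 687 CPM in the N6L cultures, again without overlap. The fitted level was 1.94-fold lower with N6L (log2 fold change -0.95, 95% interval -1.32 to -0.59, adjusted p = 0.00255 by edgeR). The fall of all 3 subunit mRNAs passed the test whichever of the 6 cultures was left out.

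Eef1a1, whose protein is the GTPase that the eEF1B subunits serve, was at 7870, 8590 and 6030 CPM in NT cytoplasm and at 8100, 6690 and 7180 CPM in N6L cytoplasm. The groups overlapped and the log2 fold change was -0.03 (95% interval -0.43 to 0.36, adjusted p = 0.905 by edgeR), so that a fall to 0.744-fold or a rise to 1.28-fold would lie within the interval. The ratio of subunit to GTPase mRNA does not depend on the scaling of a library, and it was computed after the values had been seen. The log2 ratio of Eef1b2 to Eef1a1 counts was -1.78, -1.97 and -1.51 in NT cytoplasm and -2.51, -2.58 and -2.59 in N6L cytoplasm. It was lower by 0.81 on average without overlap, as was that of Eef1d (difference -0.87) and of Eef1g (difference -0.95). The exact two-sided permutation test gave p = 0.1 for each, the smallest that 3 cultures against 3 allow, and 0.3 after adjustment over the 12 ratios computed. In the polysomes the same subunit to GTPase ratios overlapped between the treatments. The differences there were -0.11 for Eef1b2, -0.17 for Eef1d and -0.31 for Eef1g (exact permutation p = 0.5, 0.7 and 0.4). In the cytoplasm the ratio of Eef1d to Eef1g overlapped between the treatments (difference 0.08, exact permutation p = 0.9).

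Eif5a encodes the hypusine-bearing factor that helps the ribosome past difficult peptide bonds and in termination. It was at 905, 977 and 1370 CPM in NT cytoplasm and at 729, 648 and 661 CPM in N6L cytoplasm, without overlap and with NT culture 4 highest. The fitted level was 1.60-fold lower (log2 fold change -0.68, SE 0.22, adjusted p = 0.0374 by edgeR). This call passed in 2 of the 6 fits that left out a culture. The adjusted p was 0.0599 when NT culture 2 was left out, 0.1 for NT culture 4, 0.0531 for N6L culture 1 and 0.111 for N6L culture 2, and the log2 fold change ranged from -0.79 to -0.50.

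Like Eef1a1, the remaining 5 mRNAs did not pass the test in the cytoplasm. Tpt1, which encodes the translationally controlled tumour protein, was at 3640, 2830 and 2870 CPM with NT and at 2350, 2180 and 2220 CPM with N6L. Its groups did not overlap and its log2 fold change was -0.47 (SE 0.17), with an adjusted p of 0.051 by edgeR, just above the limit, and of 0.0218 by DESeq2, and it passed without NT culture 2 (0.0485). Pabpc1, the main poly(A)-binding protein of growing cells, was at 2400, 2590 and 2370 CPM with NT and at 2030, 1710 and 1740 CPM with N6L, also without overlap (log2 fold change -0.43, SE 0.22, adjusted p = 0.151 by edgeR). Its inducible paralog Pabpc4 was at 181, 198 and 173 CPM with NT and at 181, 125 and 138 CPM with N6L, and the groups overlapped. Its log2 fold change was -0.32 (SE 0.19, adjusted p = 0.211 by edgeR) and reached -0.49 without N6L culture 1 (adjusted p = 0.0471).

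Eef2 was at 4080, 4980 and 3240 CPM in NT cytoplasm and at 5660, 3680 and 4270 CPM in N6L cytoplasm, with overlapping groups and a log2 fold change of 0.15 (95% interval -0.36 to 0.65). The kinase Eef2k, which phosphorylates eEF2 and slows elongation, was at 35.7, 39.2 and 34.8 CPM with NT and at 45.7, 40.0 and 43.5 CPM with N6L. The Eef2k groups did not overlap and the log2 fold change was 0.24 (95% interval -0.13 to 0.60, adjusted p = 0.308 by edgeR). In all, 6 of the 10 genes lay below NT without overlap and 1 above, beside 25.6% and 29.3% of all genes. The log2 ratio of Eef2k to Eef2 was -6.79 ± 0.23 in NT cytoplasm and -6.69 ± 0.23 in N6L cytoplasm (SD, n = 3 each, exact two-sided permutation p = 0.7).

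Across all genes the cytoplasmic change followed transcript length (Spearman's rho 0.504 over 13867 genes, a description across genes, which are not independent replicates). With an offset for length and GC content in each library, the log2 fold change was -0.79 for Eef1b2 (adjusted p = 0.003 by edgeR), -0.92 for Eef1d (0.000989) and -0.84 for Eef1g (0.00124). That of Eif5a shrank from -0.68 to -0.37 (adjusted p = 0.0438 by edgeR), and that of Tpt1 from -0.47 to -0.15. Pabpc1 also passed in this fit (log2 fold change -0.57, adjusted p = 0.0252), so that 5 of the 10 were lower, beside 17.9% of all genes.

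**Figure D2:**
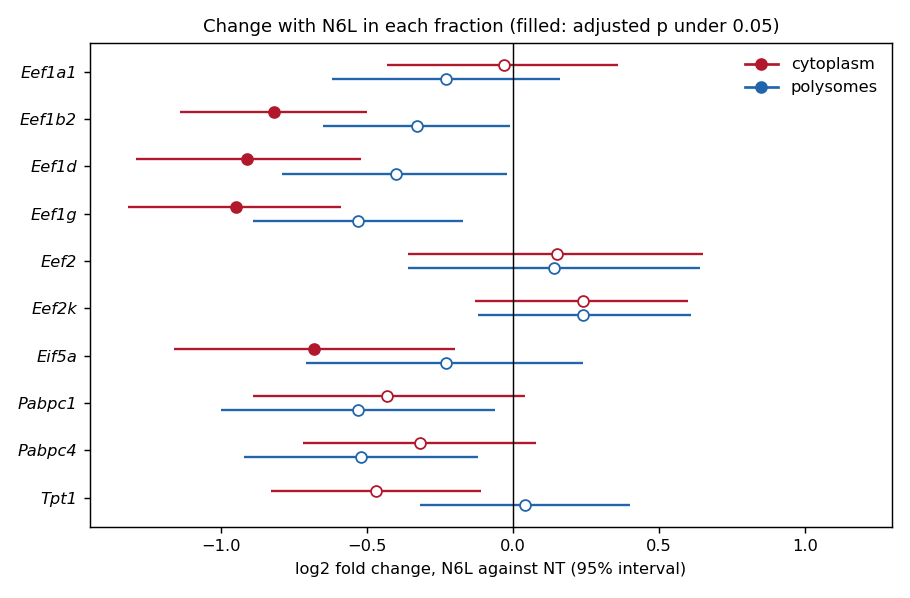
Log2 fold change of N6L against NT for the 10 genes (horizontal axis) in cytoplasm (red) and polysomes (blue), with 95% intervals from the fit. Filled points passed the adjusted p limit of 0.05: Eef1b2, Eef1d, Eef1g and Eif5a in the cytoplasm, and 0 genes in the polysomes.

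In the polysomes the same comparison asks how much of each mRNA was found on several ribosomes relative to all other mRNAs there. No gene of the group passed the test by edgeR (0 of 10, with 5 of 10 at an unadjusted p under 0.05, beside 26.5% of all genes), and 1 passed by DESeq2, Eef1g (adjusted p = 0.0231), beside 14.6% of all genes. By edgeR 3.66% of all genes were lower and 6.01% higher. The median log2 fold change of the group was -0.28 (SD 0.14 over N6L cultures) against 0 for all genes. The 3 eEF1B subunits lay below NT in every N6L library, and no gene lay above in all, beside 11.9% and 13.7% of all genes.

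Eef1g was at 1590, 1480 and 1700 CPM in NT polysomes and at 1020, 985 and 1300 CPM in N6L polysomes (log2 fold change -0.53, SE 0.17, adjusted p = 0.0632 by edgeR), and it passed without N6L culture 3 (adjusted p = 0.0379). Eef1b2 was at 2680, 2290 and 2240 CPM with NT and at 2030, 1610 and 2080 CPM with N6L (log2 fold change -0.33, SE 0.15, adjusted p = 0.17). Eef1d was at 735, 746 and 991 CPM with NT and at 585, 558 and 723 CPM with N6L (log2 fold change -0.40, SE 0.18, adjusted p = 0.165). For each subunit the polysomal log2 fold change was nearer to 0 than the cytoplasmic one.

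For the poly(A)-binding proteins it was not. Pabpc1 was at 1540, 1350 and 1070 CPM in NT polysomes and at 1190, 963 and 577 CPM in N6L polysomes, and the groups overlapped (log2 fold change -0.53, SE 0.22, adjusted p = 0.137 by edgeR). Pabpc4 was at 208, 211 and 166 CPM with NT and at 172, 121 and 116 CPM with N6L (log2 fold change -0.52, SE 0.19, adjusted p = 0.0941 by edgeR). Both passed without N6L culture 1, with an adjusted p of 0.0422 for Pabpc1 and 0.017 for Pabpc4. Both also passed with the offset for length and GC content, as did Eef1d and Eef1g, so that 4 of the 10 were lower in that fit, beside 12.1% of all genes. The log2 ratio of Pabpc4 to Pabpc1 was -2.75 ± 0.12 in NT polysomes and -2.70 ± 0.35 in N6L polysomes (SD, n = 3 each, exact two-sided permutation p = 0.9).

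Eef1a1 was at 8740, 8770 and 6270 CPM in NT polysomes and at 8090, 6240 and 5950 CPM in N6L polysomes (log2 fold change -0.23, 95% interval -0.62 to 0.16). Eif5a was at 1250, 1340 and 1920 CPM with NT and at 1010, 1120 and 1700 CPM with N6L, Tpt1 at 3510, 2290 and 2630 CPM with NT and at 2760, 2760 and 3140 CPM with N6L, and both overlapped. Eef2 was at 4950, 6360 and 3600 CPM with NT and at 5840, 4290 and 6290 CPM with N6L. Eef2k was at 40.1, 51.3 and 40.2 CPM with NT and at 43.6, 47.3 and 64.9 CPM with N6L. Neither Eef2 nor Eef2k separated the treatments.

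**Figure D3:**
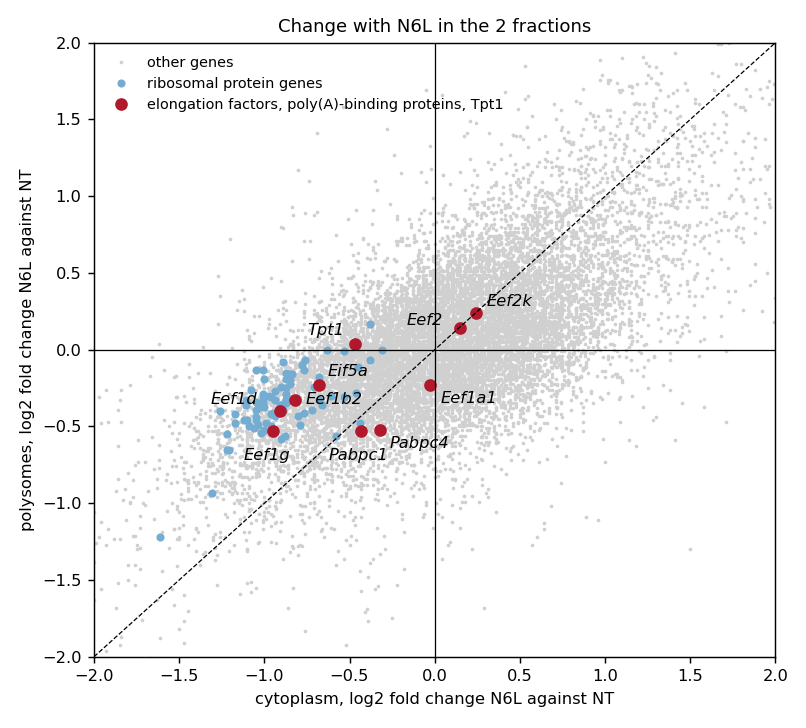
Log2 fold change of N6L against NT in cytoplasm (horizontal axis) and polysomes (vertical axis) for the 13889 genes tested, with the 10 genes of the group in red, 82 ribosomal protein genes in blue and the line of equal change dashed. The eEF1B subunits lie among the ribosomal protein genes, Eef1a1, Eef2 and Eef2k near or above 0 in the cytoplasm, and Pabpc1, Pabpc4 and Eef1a1 below the dashed line. The axes leave out 206 genes beyond a log2 fold change of 2.

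The mRNAs most like these in class are those of the ribosomal proteins. Of 82 ribosomal protein genes tested, 79 fell and 0 rose in the cytoplasm, with a median log2 fold change of -0.91 and a range from -1.61 to -0.31. In the polysomes 3 fell, beside 3.66% of all genes, and the median was -0.34. In the cytoplasm, Eef1b2 (-0.82), Eef1d (-0.91), Eef1g (-0.95), Eif5a (-0.68), Tpt1 (-0.47), Pabpc1 (-0.43) and Pabpc4 (-0.32) lay within the range of the ribosomal protein genes, and Eef1a1 (-0.03), Eef2 (0.15) and Eef2k (0.24) lay above it. The 5 genes with an annotated TOP start all lay within this range, as did Eef1g and Eif5a without one. The 3 genes above it had none at an annotated start. For Eef1b2, Pabpc4 and Tpt1 the start shown belonged to a transcript not annotated as protein-coding. Annotated starts can miss the base at which transcription begins, and a link between start and change was not tested. With the offset for length and GC content, 58 of the 82 fell and their median was -0.48.

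The polysome-to-cytoplasm ratio asks what share of an mRNA was on polysomes relative to the other mRNAs of the same culture. In NT cultures Pabpc1 stood lowest of the group: its log2 ratio was -0.65, -0.94 and -1.15 in cultures 1, 2 and 4. The fitted log2 ratio was -0.90 (95% interval -1.37 to -0.43), 1.86-fold lower in polysomes than in cytoplasm, and below those of all but 3.39% of the genes tested. It did not pass the limit (adjusted p = 0.114 by edgeR). It passed when the culture was kept as a block, since both libraries of a culture came from one lysate (adjusted p = 0.0441), by DESeq2 (adjusted p = 0.0155), and without N6L culture 3, which shares the estimate of spread (adjusted p = 0.0174). No other gene of the group passed in any of these fits, so the count was 0 of 10 by edgeR and 1 of 10 with the block and by DESeq2, beside 0.209%, 1.46% and 1.97% of all genes, respectively. At an unadjusted p under 0.05 the count by edgeR was 1 of 10, beside 13.4% of all genes.

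The other 9 genes had fitted log2 ratios between -0.15 for Tpt1 and 0.47 for Eif5a in NT cultures. The Eif5a ratio was 0.47, 0.45 and 0.48, an SD of 0.01 over cultures, and above those of 94.3% of genes, but it did not pass the test (adjusted p = 0.382 by edgeR, 0.118 with the block). Across all genes the NT ratio followed transcript length (Spearman's rho -0.48, a description across genes). With the offset for length and GC content the log2 ratio of Eif5a was 0.23 (adjusted p = 0.458 by edgeR). The median of the group was 0.12 against 0.03 for all genes. Pabpc4 did not share the low ratio of Pabpc1: its log2 ratios were 0.20, 0.09 and -0.06. The log2 ratio of Pabpc4 to Pabpc1 counts therefore moved from -3.74 ± 0.03 in NT cytoplasm to -2.75 ± 0.12 in NT polysomes (SD, n = 3).

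In N6L cultures 5 of the 10 genes passed the same test, beside 39.0% of all genes, and the median of the group was 0.32 against 0.03. Pabpc1 was again lower in polysomes, with log2 ratios of -0.77, -0.83 and -1.59 in cultures 1, 2 and 3 and a fitted value of -1.0 (95% interval -1.47 to -0.53, adjusted p = 0.00601 by edgeR). This passed whichever culture was left out, and also with the offset for length and GC content (adjusted p = 0.00736). The 4 genes that were higher in polysomes were Eif5a (0.91, SE 0.22, adjusted p = 0.00867), Eef1d (0.64, SE 0.18, adjusted p = 0.0145), Eef1b2 (0.62, SE 0.15, adjusted p = 0.0081) and Eef1g (0.53, SE 0.17, adjusted p = 0.0252), all by edgeR.

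The number of calls changed when single cultures were left out. N6L culture 3 had the highest ratio for each of them (0.80 for Eef1b2, 0.87 for Eef1d, 0.92 for Eef1g and 1.36 for Eif5a), and without it Pabpc1 alone passed, 1 of 10, beside 12% of all genes. The log2 ratios without it were 0.52 for Eef1b2, 0.51 for Eef1d, 0.32 for Eef1g and 0.63 for Eif5a. Without N6L culture 2, Pabpc1 and Eef1b2 passed, 2 of 10, beside 8.69% of all genes, while the log2 ratios of Eef1d (0.68), Eef1g (0.53) and Eif5a (0.99) were as large as with it or larger. With the offset for length and GC content 3 passed, namely Pabpc1, Eef1b2 (adjusted p = 0.0135) and Eef2k, which was higher in polysomes in that fit (log2 ratio 0.89, adjusted p = 0.0135), beside 16.7% of all genes. The log2 ratios of Eif5a (0.31), Eef1d (0.37) and Eef1g (0.19) shrank in that fit and did not pass (adjusted p = 0.109, 0.0958 and 0.369 by edgeR). Across all genes the ratio in N6L cultures followed transcript length with a Spearman's rho of -0.633, again a description across genes. Tpt1 reached an adjusted p of 0.102 by edgeR and of 0.0149 with the culture as a block (log2 ratio 0.36), so that 6 of the 10 passed with the block, beside 53.7% of all genes.

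**Figure D4:**
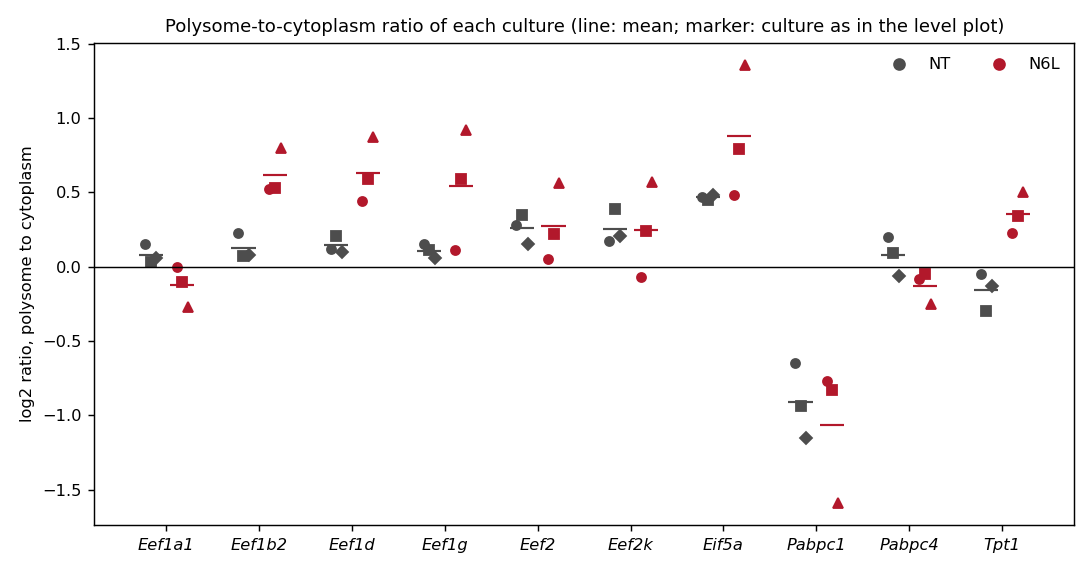
Log2 polysome-to-cytoplasm ratio of the 10 genes (vertical axis) in each of 3 NT cultures (grey) and 3 N6L cultures (red), from TMM-scaled CPM, with lines at the means. Pabpc1 lies below 0 in all 6 cultures, the N6L values of Eef1b2, Eef1d and Tpt1 lie above and those of Eef1a1 below the NT values, and N6L culture 3 (triangle) is at an extreme of its group for every gene.

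The translational index (TI) is the difference between the log2 ratios of N6L and NT cultures, so a positive TI means that an mRNA kept or gained polysome share relative to others. As 1 contrast over all 12 libraries no gene passed the limit, in the group (0 of 10) or among all genes (0%), by edgeR, by DESeq2 or with the culture as a block. At an unadjusted p under 0.05 there was 1 of the 10 genes by edgeR, 2 by DESeq2 and 3 with the block, beside 7.73%, 8.88% and 21.6% of all genes. The median TI of the group was 0.21 (SD 0.25 over N6L cultures) against 0.01 for all genes, and that of the ribosomal protein genes was 0.57. Across all genes the TI followed transcript length (Spearman's rho -0.546, a description across genes). With the offset for length and GC content the medians were 0.14 for the group and 0.29 for the ribosomal protein genes.

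The 4 highest TI values of the group were close to each other: Tpt1 0.51 (SE 0.24), Eef1d 0.50 (SE 0.25), Eef1b2 0.49 (SE 0.21) and Eif5a 0.44 (SE 0.32). For Tpt1 the log2 ratio was -0.05, -0.30 and -0.13 in NT cultures and 0.23, 0.34 and 0.50 in N6L cultures. For Eef1b2 it was 0.23, 0.07 and 0.08 in NT cultures and 0.52, 0.53 and 0.80 in N6L cultures. For Eef1d it was 0.12, 0.21 and 0.10 in NT cultures and 0.44, 0.59 and 0.87 in N6L cultures.

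The N6L ratios of Tpt1, Eef1b2 and Eef1d lay above all NT ratios, as did those of 15.3% of all genes. The exact two-sided permutation test gave p = 0.1 for each, the smallest possible here. Eef1g (TI 0.42, SE 0.24) and Eif5a overlapped, because N6L culture 1 had ratios of 0.11 for Eef1g and 0.48 for Eif5a, at the level of the NT cultures.

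Eef1a1 was the only gene of the group whose N6L ratios (0, -0.10 and -0.27) lay below all NT ratios (0.15, 0.03 and 0.06), as did those of 14.4% of all genes. Its TI was -0.20 (SE 0.26, adjusted p = 0.738 by edgeR). Pabpc4 had a TI of -0.20 (SE 0.26), Pabpc1 of -0.11 (SE 0.31), Eef2 of -0.01 (SE 0.33) and Eef2k of 0.01 (SE 0.24), all with overlapping cultures. The 95% interval of the Pabpc1 TI ran from -0.77 to 0.55, so the low polysome share of this mRNA was not shown to differ between NT and N6L. With the offset for length and GC content the TI of Eef1b2 was 0.53, that of Eef2k 0.48 and that of Eef1d 0.32, while those of Tpt1 (0.20) and Eif5a (0.08) were smaller.

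Other genes of the same pathways were taken from 4 lists. Among all genes 13.8% were lower and 14.5% higher in the cytoplasm with N6L. Of 16 tested partners and modifying enzymes of the elongation factors, 4 fell and 0 rose there, with a median log2 fold change of -0.26. They were Eef1e1, a component of the tRNA synthetase complex (-0.96, SE 0.15, adjusted p = 0.00153 by edgeR), Dohh, which completes the hypusine of eIF5A (-0.83, SE 0.19), Dph3, needed for the diphthamide of eEF2 (-0.74, SE 0.21), and Eefsec, the elongation factor for selenocysteine (-0.54, SE 0.16). In the polysomes Eef1e1 alone fell (-0.57, SE 0.15), beside 3.66% of all genes. Within N6L cultures 7 of the 16 were higher in polysomes than in cytoplasm, beside 18.4% of all genes, and 3 with the offset for length and GC content. The smallest p-values were those of Dohh (log2 ratio 1.03, SE 0.19) and Dhps, the first enzyme of hypusine synthesis (0.85, SE 0.20).

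Of 13 tested poly(A)-tail binding partners, 2 rose and 1 fell in the cytoplasm, beside 14.5% and 13.8% of all genes. Tob1, which recruits the deadenylase to poly(A)-binding protein, rose in the cytoplasm (0.99, SE 0.21, adjusted p = 0.00561 by edgeR) and in the polysomes (0.77, SE 0.21, adjusted p = 0.0376). Tent5c, a poly(A) polymerase, rose in both as well (1.95 and 2.43, SE 0.37 each), with a mean level of 0.681 CPM over all 12 libraries. Pabpn1, the nuclear poly(A)-binding protein, fell in the cytoplasm (-0.99, SE 0.32, adjusted p = 0.0316). Larp1, the TOP mRNA-binding protein, did not pass in either fraction with N6L, but was lower in polysomes than in cytoplasm within N6L cultures (log2 ratio -0.73, SE 0.20), as were Larp4b (-1.12, SE 0.23), Larp4 (-1.28, SE 0.28) and Pan3 (-0.63, SE 0.21). These were 4 of the 13, beside 20.6% of all genes. With the offset for length and GC content none of the 13 was lower in that comparison (0 lower and 2 higher by edgeR).

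Of 12 termination, recycling and rescue factors, Denr alone fell in the cytoplasm (-0.71, SE 0.19, adjusted p = 0.0168 by edgeR) and in the polysomes (-0.99, SE 0.20, adjusted p = 0.00837), and 0 rose. Its protein acts in re-initiation and in recycling of the small ribosomal subunit. Among all genes 13.8% were lower in the cytoplasm and 3.66% in the polysomes. Within N6L cultures 5 of the 12 were lower in polysomes (4 with the offset), beside 20.6% of all genes, among them Abce1, which splits ribosomes after termination (log2 ratio -1.12, SE 0.22), and the quality control factor Nemf (-1.83, SE 0.40). Of 8 mitochondrial elongation and release factors, Tsfm, the exchange factor for the mitochondrial elongation factor Tufm, fell in the cytoplasm (-0.80, SE 0.17, adjusted p = 0.0048). In the polysomes 0 of 8 passed by edgeR, with 1 at an unadjusted p under 0.05, beside 26.5% of all genes. With the offset 2 were lower there, beside 12.1% of all genes.

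Among the 10 genes, those whose log2 CPM followed the mean of the other 9 most closely over the 12 libraries were Eef1b2 (Pearson's r 0.945), Eef1g (0.913) and Eef1d (0.751), while Eef2 (0.0934), Pabpc1 (-0.21) and Eef2k (-0.216) did not follow it. Of 8949 other genes averaging 10 CPM or more, the 5 most like the mean of the group were Xrcc1 (0.971), Shmt2 (0.969), BC030867 (0.967), Cdt1 (0.965) and Phgdh (0.96). These correlations are descriptions over libraries that share cultures and treatments.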

How the data were processed

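Each of the 12 libraries was deposited as 4 technical replicates. STAR was the aligner and HTSeq-count 0.5.3 the counter used by the authors (build mm10 in the submitters' notes), and the deposited values are raw counts. In N6L culture 2, 3 cytoplasmic technical replicates carry labels that disagree on the culture. They were kept with culture 2 (chi-square per degree of freedom 1.01 to 1.04 against its other replicate, 11.2 to 11.4 against culture 1). Technical replicates were summed. The replicate numbers stand for cultures, which the sources do not describe as separate experiments. The main edgeR fit and DESeq2 took the spread between libraries over all 12 and treated both libraries of a culture as independent. The fits with the culture as a block did not, and the permutation tests compared cultures.

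Counts were filtered with filterByExpr, scaled by TMM and tested with edgeR 4.0.16 (glmQLFit, glmQLFTest, R 4.3.3), with 1 mean for each fraction and treatment and Benjamini-Hochberg adjustment over 13889 genes. DESeq2 1.42.0 was an alternative. CPM are TMM-scaled, and log2 CPM used a prior count of 2. The length and GC offset used splines with 5 degrees of freedom. The main, block and offset fits were tested on simulated data of independent libraries. These data held no pairing of libraries by culture and no trend with length or GC content. Both libraries of a culture share a lysate, which pairs them. Over genes, the correlation of their deviations from the mean of the group was 0.364 to 0.645 for the NT cultures and 0.0368 to 0.229 for the N6L cultures.

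The 10 genes and the lists were chosen with earlier results of these data known. All 10 are named. List genes past the adjusted p limit are named by smallest p, at most 6 a list and comparison. Eef1a2 and Pabpc5 did not pass the filter, and Eef1akmt4 was not matched. Alternatives were RLE factors, library size alone, other filters, DESeq2, replicates or cultures left out, blocks, the compared libraries only and the offset.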

Additional observations from a re-analysis of the deposited data

How the results depend on the processing

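The fall of Eef1b2, Eef1d and Eef1g in the cytoplasm passed the test under all 16 alternatives, and the number of the 10 genes called there stayed between 3 and 6. Of all 13889 genes tested, 3935 were called there in the main edgeR fit, 4596 by DESeq2, 4737 with the replicate block and 4169 with the offset. In the polysomes with N6L, 1 of the 10 was called by DESeq2 and 4 with the length and GC offset, with or without the replicate block, and leaving out cultures gave 0 to 2. Of all genes, 1343 were called there in the main edgeR fit, 2034 by DESeq2 and 2959 with the offset. For the NT polysome-to-cytoplasm ratio, 1 was called with the replicate block, by DESeq2, without a filter, with the compared libraries alone and with the offset, 2 with the offset and the replicate block, and 0 to 1 with a culture left out. Of all genes, 29 were called for this ratio in the main edgeR fit, 203 with the block, 273 by DESeq2 and 57 with the offset. For the N6L ratio 3 were called with the offset and 1 to 5 with a culture left out, and Eef1g did not pass with the compared libraries alone (adjusted p = 0.0674). Of all genes, 5415 were called for the N6L ratio in the main edgeR fit and 2313 with the offset. No gene of the group was called for the TI under any alternative. The median of the group moved by more than its SD over cultures with library size alone (-0.30 in the cytoplasm, 0.04 for the NT ratio, where the median of all genes in the cytoplasm moved from 0.04 to 0.19) and for the NT ratio with the offset (0.04, with and without the replicate block).

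Some values changed sign, none of them called by the edgeR test of the report. For Eef1a1 in the cytoplasm the log2 fold change was 0.10 with library size alone, 0.01 without a filter, 0.04 with the offset and -0.20 to 0.08 with a culture left out. For Eef2 it was -0.07 with the replicate block and -0.06 with the block and the offset in the cytoplasm, -0.07, -0.21 and -0.07 in the polysomes with the block, with both and with the offset, and -0.05 to 0.31 and -0.03 to 0.36 with a culture left out. For Eef2k in the cytoplasm it was -0.24 with the offset and -0.38 with the block as well. For Tpt1 in the polysomes it was -0.01 with the block, -0.02 with the block and the offset and -0.09 to 0.23 with a culture left out. The NT ratio of Eef1g was -0.05 with the offset, with or without the block, and the N6L ratio of Tpt1, 0.36 in the report and called with the block alone, was -0.22 in both. The TI of Eef2 was 0.01 with RLE factors and with DESeq2, 0.02 with the block and -0.16 to 0.14 with a culture left out. That of Eef2k was -0.07, -0.03 and -0.00 with library size alone, without a filter and with the block, -0.18 to 0.16 with a culture left out and 0.48 with the offset, and that of Pabpc1 was -0.27 to 0.10. The cause of these changes was not tested.

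NT and N6L cultures share only a number: for number 1 their deviations correlated by 0.228 in the cytoplasm and 0.296 in the polysomes, for number 2 by 0.0455 and 0.00756. Number 3 occurs only with N6L and number 4 only with NT. In a fit with the number as a block, the level difference between treatments therefore rested on cultures 1 and 2. With the culture number as a block, 5 instead of 4 genes of the group were called in the cytoplasm and 0 in the polysomes. Among all 13889 genes tested, 4737 instead of 3935 were called in the cytoplasm and 1355 instead of 1343 in the polysomes. With 3 cultures against 3, no permutation p below 0.1 was possible.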
